A study of Mus musculus with 12 samples.

Results

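The regions described here are the m6A peaks that the deposited annotation places in a 3′ UTR, the stretch of an mRNA between its stop codon and its poly(A) tail. They were taken as every row whose annotation begins with 3′ UTR. They numbered 15876 of 33622 peaks in the WT list (47.2%, exact 95% interval 46.7 to 47.8), in 10454 genes, and 17229 of 34935 peaks in the Tyrobp-/- list (49.3%, 48.8 to 49.8), in 11083 genes. The table that compares the genotypes held another 3004 among 5640 rows (53.3%, 52.0 to 54.6), in 2661 genes. The peaks came from MeRIP-seq, in which fragmented poly(A) RNA is pulled down with an antibody against N6-methyladenosine (IP) and sequenced beside untreated input RNA. The tissue was the hippocampus of male C57BL/6 mice aged 6 months. The groups were WT littermates and Tyrobp-/- mice, which carry a TALEN deletion in exon 2 of Tyrobp, the adaptor protein of microglial immune receptors. Each genotype had 3 samples, and each sample pooled the RNA of 3 mice.

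The IP libraries held 61189368 to 71579536 valid reads and the input libraries 67033990 to 73554506. The GC content ran from 49.16% to 50.24% in WT IP libraries, from 48.46% to 49.33% in Tyrobp-/- IP libraries and from 47.59% to 48.00% in all input libraries. The authors called peaks on the 3 replicates of a genotype together, so a peak has a single pooled value per genotype, with no spread over replicates. All intervals and tests on counts of peaks cover counting error only. Fold enrichment is the deposited ratio of IP over input reads at a peak, scaled within each genotype. It ranks peaks within a genotype, and a ratio between genotypes says nothing of the total amount of m6A. Peaks do not carry the level of the mRNA, so fewer cells of a type and less RNA per cell cannot be told apart here. Tyrobp had no peak of any class in either list, so the lists do not check the deletion.

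m6A is written co-transcriptionally by the METTL3-METTL14 complex with WTAP, VIRMA, ZC3H13, CBLL1 and RBM15 proteins, mostly at adenosines in a GGAC context, and is known to gather around stop codons and in 3′ UTRs of long last exons. There it is read by YTHDF proteins, which favour mRNA decay or translation, while FTO and ALKBH5 remove it. In neurons, 3′ UTRs also carry the signals for transport of mRNA into dendrites and for local translation, and they hold most miRNA target sites.

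The bases under the peaks could be read where a 3′ UTR peak ran into the promoter window of a neighbouring gene, since RefSeq windows of 300 bases around gene starts (GRCm38.p6) were the genome sequence at hand. Such stretches of at least 100 bases came from 55 peaks in the WT list and 49 in the Tyrobp-/- list, a small and unrepresentative share of the 3′ UTR peaks. GGAC, the core of the m6A consensus, stood on the strand of the peak's gene 6.36 times per 1000 bases in WT peaks and 3.72 times on the opposite strand. In Tyrobp-/- peaks the rates were 6.26 and 3.23. GGACT, in which each match also holds GGAC, occurred 2.09 times per 1000 bases on the gene's strand and 1.27 times on the other in WT peaks, and 1.66 and 1.17 times in Tyrobp-/- peaks. Over all 32851 promoter windows the rate was 3.82 per 1000 bases for GGAC and 1.03 for GGACT, and 65.6% of windows held GGAC and 26.1% held GGACT on the gene's strand. In the 3′ UTR stretches of both lists, both words were thus more frequent on the gene's strand than opposite to it. In the 5′ UTR stretches of WT peaks, GGAC occurred 5.97 times on the gene's strand and 4.70 times opposite to it. In Tyrobp-/- peaks these rates were 5.34 and 3.90. In other exons, with 12 peaks in each list, they were 6.38 and 3.75 in WT but 4.42 and 6.03 in Tyrobp-/- mice. A strand excess of GGAC was thus not particular to 3′ UTRs. GGAC stood on the gene's strand in 66.7% of 3′ UTR stretches in each list and in 65.6% of promoter windows. The windows hold 300 bases each, while the 57 WT stretches held 11011 bases together and the 51 Tyrobp-/- stretches 10216. The stretches were thus shorter on average, so these shares cannot be compared directly. These rates rest on few stretches and were not tested.

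The windows below show GGACT within 3′ UTR peaks found in both genotypes, 5′ to 3′ on the strand of the named gene, with GGACT in capitals. Pcif1 encodes the enzyme that methylates adenosine next to the mRNA cap, Slc25a44 a mitochondrial carrier of branched-chain amino acids, Cd276 an immune checkpoint ligand, and Lipt2 an enzyme of lipoic acid synthesis. The match is a description and marks no mapped m6A site.
Dhrs13, chr11:78037702-78037730, plus strand: ggaattgggaaaGGACTaagtcagggcag
Lipt2, chr7:100160251-100160279, plus strand: attgtgccttgtGGACTggttggaactgg
Pcif1, chr2:164891155-164891183, plus strand: cacagactgctaGGACTcagcctcagggc
Cd276, chr9:58526166-58526194, minus strand: tacttttccaatGGACTtaattcccatca
Slc25a44, chr3:88410566-88410594, minus strand: ttagctagaaatGGACTcgaggagattag

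The peak around the Dhrs13 window had a fold enrichment of 19.9 in WT and 26.2 in Tyrobp-/- mice. At Lipt2 the values were 19.2 and 18.1. The Pcif1 peak stood at 8.69 and 6.94, the Cd276 peak at 4.72 and 4.92, and the Slc25a44 peak at 3.83 and 4.62. None of these 5 peaks changed by 2-fold between the genotypes.

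A few 3′ UTR peaks covered the hairpins from which miRNAs are cut. Of 1005 RefSeq hairpins, 13 lay whole within the exonic bases of a WT 3′ UTR peak and 9 within those of a Tyrobp-/- 3′ UTR peak, and all 9 were among the 13. Peaks of any class held 27 hairpins in WT and 21 in Tyrobp-/- mice, where 3′ UTR peaks were 47.2% and 49.3% of all peaks. The 12 mature miRNAs of the 9 hairpins had 12 different seeds (bases 2 to 8), and GGAC occurred in 3 of the 9 hairpins. Mir671, on chromosome 5, lay within 2 peaks of each list, at up to 16.5 in WT and 15.9 in Tyrobp-/- mice. Mir3098, on chromosome 6, rested on 1 peak in each list and had 2.44 in WT and 7.62 in Tyrobp-/- mice. The peaks over Mir8115, which the annotation names after Mir8115 or P2rx7, a microglial ATP-gated channel, reached 16.6 in WT and 10.3 in Tyrobp-/- mice. Mir1905 was covered in the WT list only, at 39.1. The mature sequences of the hairpins described are given with the seed in capitals.
mmu-miR-671-5p: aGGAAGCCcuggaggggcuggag
mmu-miR-671-3p: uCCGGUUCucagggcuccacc
mmu-miR-3098-5p: uCCUAACAgcaggaguaggagc
mmu-miR-3098-3p: uUCUGCUGccugccuuuagga
mmu-miR-8115: cCGCAAUAgcaacaagggcucu

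3′ UTR peaks were longer, better supported and, taken over all lengths, less enriched than peaks elsewhere in transcripts. Their median exonic length, introns inside a peak left out, was 388 bp in WT and 360 bp in Tyrobp-/- mice, compared with 271 bp and 269 bp for peaks of all other classes. A peak-calling FDR below 1e-5 was reached by 78.6% of 3′ UTR peaks in WT and 77.5% in Tyrobp-/- mice, compared with 51.7% and 49.6% of other peaks. The median fold enrichment was 5.20 in WT (quartiles 2.85 and 9.33) and 5.28 in Tyrobp-/- mice (2.87 and 9.49), compared with 5.86 and 6.13 for other peaks. Among peaks with an FDR below 1e-5 the 3′ UTR medians were 5.39 and 5.56, against 5.60 and 5.72. Among peaks that only the named gene overlaps, of RefSeq protein-coding genes, the log2 of the ratio of the medians was 0.001 in WT and -0.014 in Tyrobp-/- mice, close to 0 in both lists.

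Fold enrichment grew with the length of the peak. In WT 3′ UTRs the median was 2.29 under 100 bp, 4.15 from 200 to 500 bp and 11.3 from 1000 bp, and in Tyrobp-/- 3′ UTRs it was 2.29, 4.29 and 11.4. Below 500 bp the 3′ UTR peaks lay under the other peaks of the same length, with 4.15 against 5.98 in WT at 200 to 500 bp. From 1000 bp they lay above them, with 11.3 against 10.6. A single value recurred among the weak peaks. In WT, 176 3′ UTR peaks in 171 genes had a fold enrichment of 6.84 with a peak-calling p of 0.0380. That is 1.11% of 3′ UTR peaks, against 3.71% of all other peaks with the same values. In Tyrobp-/- mice 208 peaks in 196 genes had 6.67 with a peak-calling p of 0.0407, or 1.21%, against 3.97% of other peaks. The median of first-exon peaks equalled the recurring value in each list. How far it sets the difference between 3′ UTR and other medians was not tested.

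**Figure D1:**
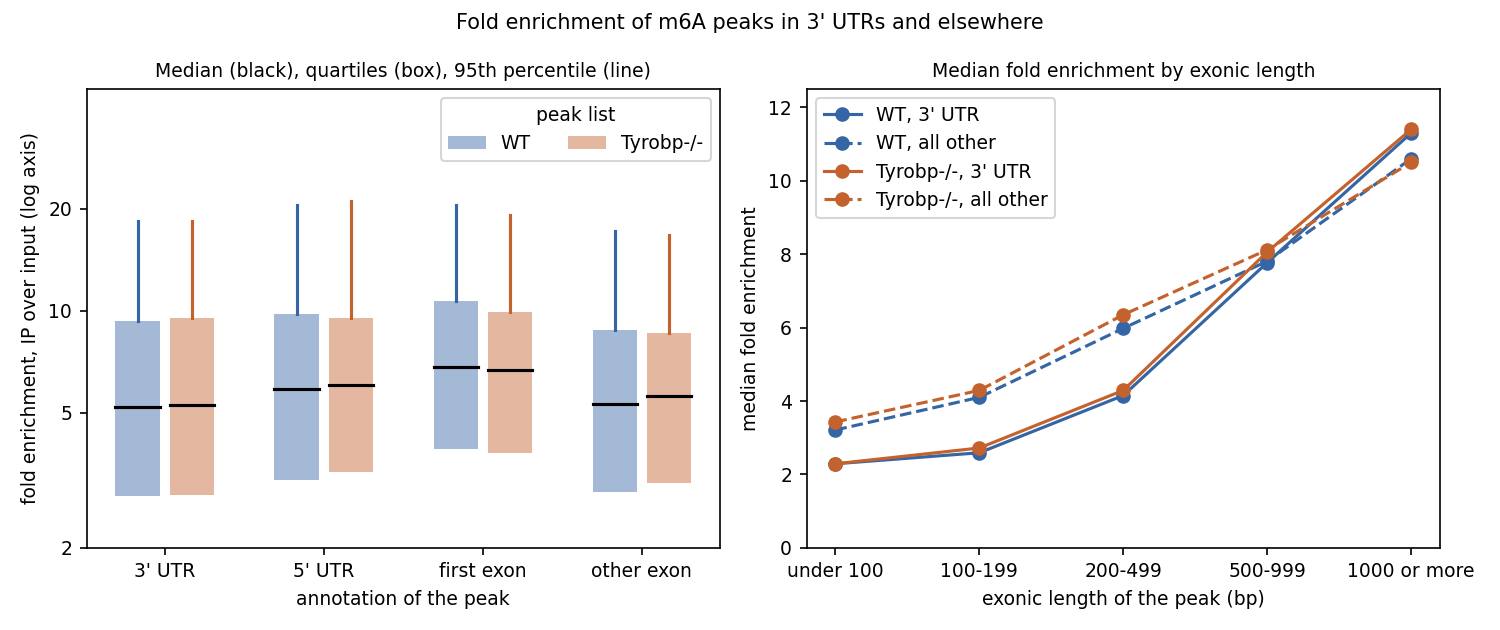
Left, fold enrichment (IP over input, log axis) of peaks by annotation class in WT (blue) and Tyrobp-/- (orange) lists, with median, quartiles and 95th percentile; right, median fold enrichment against exonic length in bp for 3′ UTR peaks (solid) and all other peaks (dashed). The 3′ UTR medians stood at 5.20 and 5.28, and rose from 2.29 under 100 bp to 11.3 and 11.4 from 1000 bp.

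Most genes carried a single 3′ UTR peak. This held for 6844 of 10454 genes (65.5%) in WT and 6925 of 11083 genes (62.5%) in Tyrobp-/- mice, and 3.59% and 3.90% of genes had 4 or more. By name, 9512 genes had a 3′ UTR peak in both lists, 942 in the WT list only and 1571 in the Tyrobp-/- list only. Names set part of these counts. Peaks were checked against RefSeq protein-coding genes only, here and wherever a peak is said to overlap the named gene alone. Only the named gene overlapped the peak for 82.7% of 3′ UTR peaks in each list, while 6.92% in WT and 6.59% in Tyrobp-/- mice lay in another protein-coding gene.

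Genes at the head of the count show this. Fgfr2, a fibroblast growth factor receptor, had 25 3′ UTR peaks in WT and 31 in Tyrobp-/- mice, but the deposited transcript spans 2961 kb, the RefSeq gene 104 kb, and only 1 and 2 of those peaks overlapped Fgfr2 alone. Pcdhgc4, a clustered protocadherin of neuronal cell recognition, had 22 in each list. They are 22 rows at a single place, with fold enrichments of 1.81 to 1.83 in WT and 1.57 to 1.59 in Tyrobp-/- mice. Ccdc167 (12) and Zfp142 (10) followed in WT, with the predicted gene Gm10544 (10 in WT, 11 in Tyrobp-/- mice). In Tyrobp-/- mice 2010111I01Rik (10) and Gm38394 (9) came next.

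Counting only peaks that overlap no other protein-coding gene, Stard9, a kinesin-family gene, had the most in WT with 9 (fold enrichment 2.12 to 9.46) and 8 in Tyrobp-/- mice (2.48 to 13.2). Adnp, a chromatin regulator of brain development, had 8 in WT, from 1.23 to 14.8. Nr2f6, an orphan nuclear receptor, had 8 in WT and 7 in Tyrobp-/- mice, from 1.94 to 15.2 and from 1.60 to 15.9. Mettl6, a tRNA methyltransferase, also had 8 in Tyrobp-/- mice, from 1.47 to 56.2.

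The 3′ UTR annotation itself places peaks toward the gene end, so their distance to it is a description. The median distance from the midpoint of a 3′ UTR peak to the deposited gene end was 1140 bp in WT (quartiles 266 and 3173) and 1003 bp in Tyrobp-/- mice (210 and 2968), compared with 14429 bp and 14231 bp for 5′ UTR peaks. Midpoints within 300 bp of the end made up 27.1% in WT and 30.4% in Tyrobp-/- mice. The 3′ edge reached the gene end or passed it in 26.8% of WT and 30.6% of Tyrobp-/- peaks. At the other extreme, 8.72% and 8.02% had a midpoint more than 10000 bp from the end. By chromosome, the share of WT peaks in 3′ UTRs was highest on chromosome 11 among the autosomes (51.9%), and it was 38.0% on the X chromosome (42.7% in Tyrobp-/- mice).

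3′ UTR peaks had a partner in the other genotype more often than other peaks in WT, and in Tyrobp-/- mice over all peaks but in neither stratum of peak strength. A partner was any peak of the other list that shares at least 1 bp of exonic sequence. In WT, 13930 of 15876 3′ UTR peaks had a partner (87.7%, 87.2 to 88.2), against 72.0% (71.4 to 72.7) of other peaks, which is 15.7 points more (p = 2.71e-286 by a two-sided Fisher's exact test). In Tyrobp-/- mice 13924 of 17229 had a partner (80.8%, 80.2 to 81.4), against 74.1% (73.4 to 74.7), which is 6.74 points more (exact p = 2.19e-51).

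The 2 lists parted when peaks were compared at like strength. Among WT peaks with an FDR below 1e-5 a partner was found for 95.8% of 3′ UTR and 90.6% of other peaks, and among the rest for 58.1% and 52.2%. Among Tyrobp-/- peaks with an FDR below 1e-5 it was found for 91.3% of 3′ UTR and 94.7% of other peaks, a difference of -3.38 points (p = 8.41e-22, exact), and among the rest for 44.6% and 53.8%, a difference of -9.21 points (p = 1.09e-21, exact). The higher overall share in Tyrobp-/- 3′ UTRs thus held in neither stratum. The split at an FDR of 1e-5 or more was added after the values were seen.

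**Figure D2:**
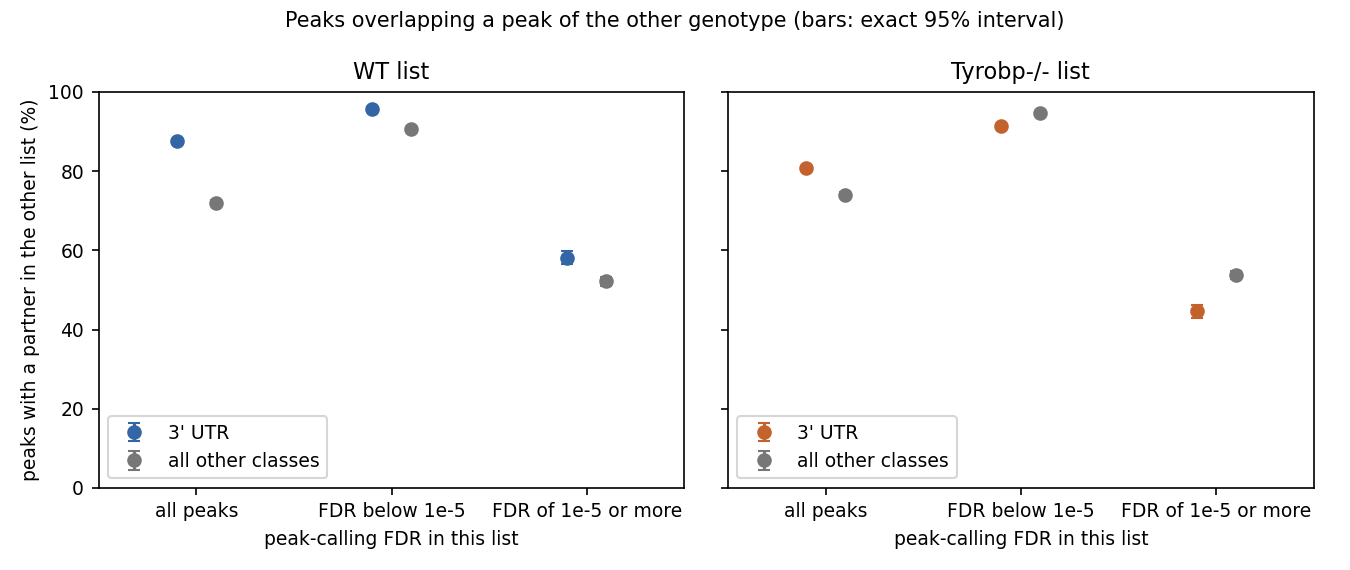
Percent of peaks with a partner in the other genotype's list, in the WT list (left) and the Tyrobp-/- list (right), for all peaks and by peak-calling FDR; coloured points are 3′ UTR peaks, grey points all other classes, bars the exact 95% interval. 3′ UTR peaks stood above the other classes in all 3 comparisons of the WT list, and below them in both FDR strata of the Tyrobp-/- list (91.3% against 94.7%, and 44.6% against 53.8%).

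The 3′ UTR peaks without a partner, 1946 in WT and 3305 in Tyrobp-/- mice, were short and weak. Their median exonic length was 150 bp in both lists, against 421 bp and 450 bp with a partner. Their median fold enrichment was 3.24 in WT and 2.86 in Tyrobp-/- mice, compared with 5.43 and 5.91. An FDR below 1e-5 was reached by 525 (27.0%) in WT and 1155 (34.9%) in Tyrobp-/- mice. In 1176 cases in WT and 1848 in Tyrobp-/- mice the same gene had another 3′ UTR peak in the other list, and in 513 and 878 cases the gene had no peak there at all.

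Partnerless peaks of Tyrobp-/- mice sat closer to the gene end than those of WT. Their median distance was 342 bp (quartiles 104 and 1739), against 813 bp (150 and 2876) in WT, while peaks with a partner lay at 1183 bp and 1191 bp. A midpoint within 300 bp of the end was found for 1597 of 3305 Tyrobp-/- peaks (48.3%, 46.6 to 50.0) and 671 of 1946 WT peaks (34.5%, 32.4 to 36.6). The shares differed by 13.8 points (p = 8.90e-23, Fisher's exact test), and by 20.5 points among peaks with an FDR below 1e-5 (p = 4.12e-15). This comparison was chosen after its values were seen. Its p-values treat the peaks of a single pooled call per genotype as units, so they do not test a difference between genotypes. The GC content given above ran lower in Tyrobp-/- than in WT IP libraries, but the ranges overlap (up to 49.33% and from 49.16%). With a single pooled call per genotype, GC content cannot be set against the result library by library, and its part was not tested.

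**Figure D3:**
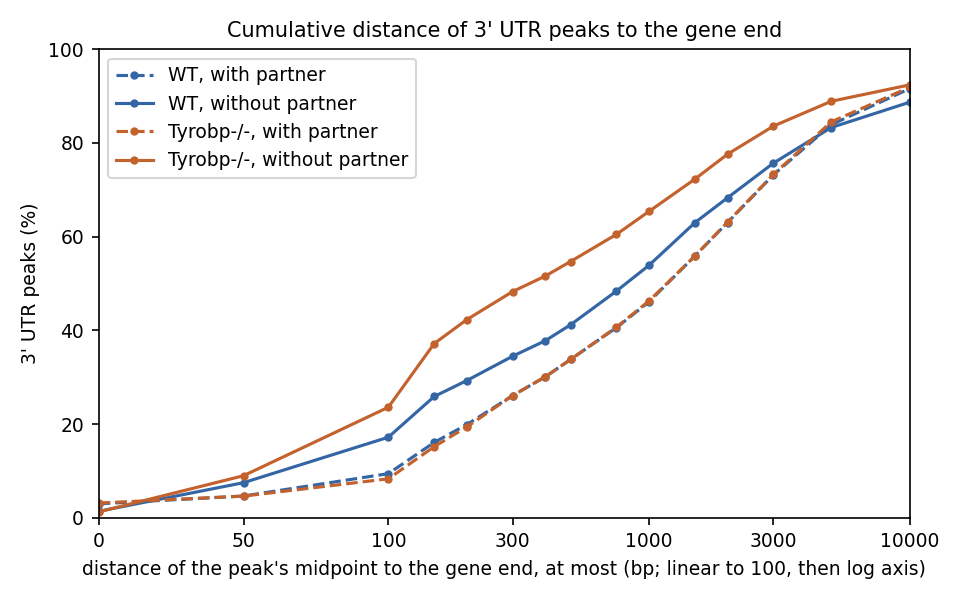
Cumulative percent of 3′ UTR peaks whose midpoint lies within a given distance of the deposited gene end (bp, linear to 100 and log beyond), for WT (blue) and Tyrobp-/- (orange) peaks with (dashed) and without (solid) a partner in the other list. The dashed curves nearly coincide, while at 300 bp the solid curves stand at 34.5% in WT and 48.3% in Tyrobp-/- mice.

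Among 3′ UTR peaks found in 1 list only, the strongest were taken from those with an FDR below 1e-5 and without predicted gene models. In WT they were at Rtn4rl2, a Nogo receptor homologue of neurons (fold enrichment 38.1, 326 bp, midpoint 162 bp from the gene end), Tmco5 (25.4), Gal3st2b, a sulfotransferase (21.5), and Esrrb, an orphan nuclear receptor (17.6). Rtn4rl2 had 1 peak of another class in the Tyrobp-/- list, and Tmco5, Gal3st2b and Esrrb had none. In Tyrobp-/- mice they were at Polr1d, a subunit of RNA polymerases (230, over 150 bp), Insl5, a relaxin-family peptide (36.2, midpoint 101 bp from the gene end), Htatsf1, a transcription elongation and splicing factor (31.4, 95 bp), and a pair of peaks named Sprr2a2 (69.6 and 31.4) that lie in another gene. Polr1d and Htatsf1 each had another 3′ UTR peak in WT, and Insl5 had no WT peak. Htatsf1 and the weaker Sprr2a2 peak had the same fold enrichment and the same log10 FDR (-7.56).

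Where the genotypes shared a 3′ UTR peak, its enrichment was much alike. Peaks were paired as mutual best partners that share at least 50% of both exonic lengths, which gave 19695 pairs, of which 11057 were 3′ UTR peaks in both lists. The median log2 ratio of fold enrichment, Tyrobp-/- over WT, was 0.08 in 3′ UTRs (quartiles -0.19 and 0.35) and -0.01 in all other pairs. Enrichment was higher in Tyrobp-/- mice in 6392 3′ UTR pairs (57.8%, 56.9 to 58.7) and in 49.3% (48.2 to 50.3) of other pairs, or 8.55 points fewer (p = 7.58e-33, Fisher's exact test). This p-value treats the pairs of a single pooled call per genotype as units, so it does not test a difference between genotypes. The shift of 3′ UTR pairs was small, and centring on the median of all pairs left a 3′ UTR median of 0.031. It was larger in short pairs, with a median of 0.16 under 200 bp, 0.12 from 200 to 500 bp, 0.05 from 500 to 1000 bp and 0.01 from 1000 bp. Pairs of 5′ UTR peaks (0.01), first exons (-0.03) and other exons (-0.02) stayed near 0.

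In 10306 of 11057 3′ UTR pairs (93.2%) the values of the genotypes lay within 2-fold of each other. Enrichment was at least 2-fold higher in Tyrobp-/- mice in 452 (4.09%, against 5.33% of pairs of all classes) and at least 2-fold lower in 299 (2.70%, against 4.39%). After centring on the median of all pairs the counts were 390 higher and 328 lower. With an FDR below 1e-5 in both lists, 347 of 10013 3′ UTR pairs were at least 2-fold higher (3.47%, against 4.08% of all such pairs) and 171 were at least 2-fold lower (1.71%, against 2.85%). Both shares lay under the background of all classes. There is 1 pooled value for each genotype, so no single pair was tested.

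**Figure D4:**
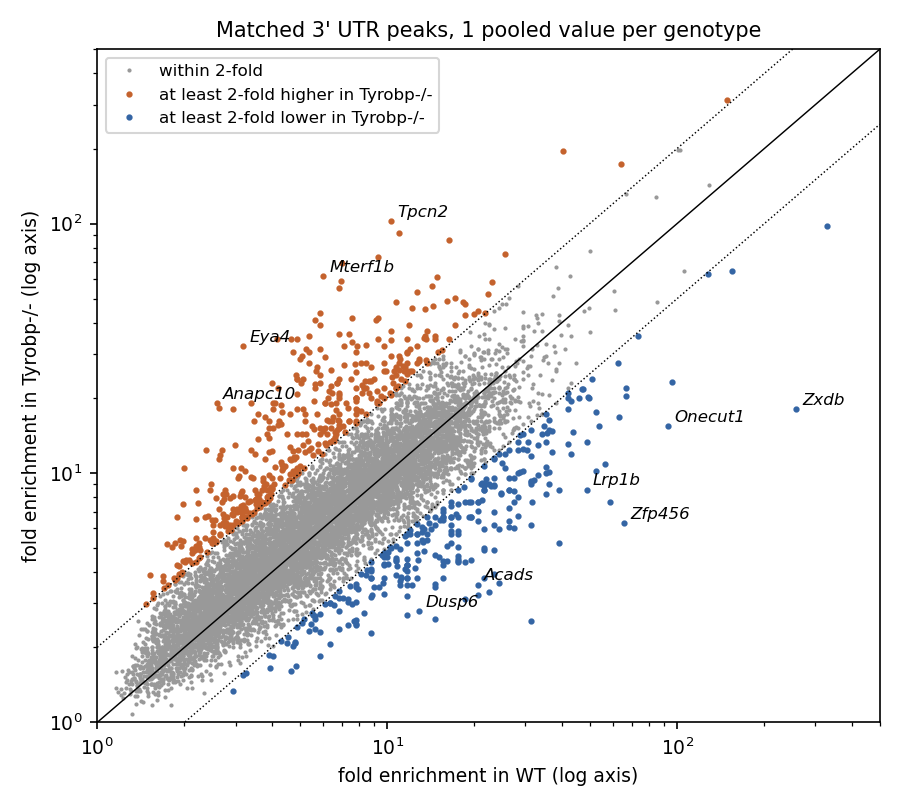
Fold enrichment of the 11057 matched 3′ UTR pairs in WT (x) and Tyrobp-/- mice (y), both log axes, with 1 pooled value for each genotype; the solid line marks equality and the dotted lines 2-fold. Most pairs (93.2%) lie between the dotted lines (grey), 452 lie on or above the upper line (orange) and 299 on or below the lower (blue).

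The highest fold enrichments of all fell on genes of varied function. In WT they were at Zbed4, a zinc finger gene (331, against 10 at its strongest partner in Tyrobp-/- mice), Erg, an ETS transcription factor of endothelium (329, against 97.7), Krt9, a keratin (322, against 229), Zxdb, an X-linked zinc finger gene (258, against 18.1), and Fgd3, an exchange factor of small GTPases (155, against 64.8). In Tyrobp-/- mice they were at Syne1, which encodes nesprin-1 of the nuclear envelope (313, against 149 in WT), Polr1d, Fam98b, a gene of the tRNA ligase complex (198, against 102), Dhx9, an RNA helicase (198, against 101), and Nyap1, a neuronal adaptor of phosphoinositide kinase signalling (195, against 40.4). Each of these with a partner had a lower value in the other genotype. Each was picked as an extreme of 1 list.

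Among pairs with an FDR below 1e-5 in both lists, the largest ratio was at Mterf1b, a regulator of mitochondrial transcription, where fold enrichment was 6.0 in WT and 61.5 in Tyrobp-/- mice (chr5:4196967-4197651 in WT). Eya4, a transcriptional coactivator with phosphatase activity, had 3.18 and 32.4, Tpcn2, a lysosomal cation channel, 10.3 and 102, and Lpar2, a lysophosphatidic acid receptor, 6.93 and 59.1. Ror2, a Wnt receptor, had 11 and 91.5, Kctd14 had 9.32 and 73.4, and Anapc10, a subunit of the anaphase-promoting complex, 2.58 and 19.1. In 2 further matched pairs the peak did not overlap the named gene alone. They were Vps72, a chromatin remodelling subunit (4.16 and 34.3), and a peak named Ttc16 in WT and Tor2a in Tyrobp-/- mice (6.96 and 69.6). The value of 69.6 recurred, with the same log10 FDR of -18.7, at a Tyrobp-/- peak named Sprr2a2 given above. The reads behind such extremes are not given, and whether few input reads set them was not tested.

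In the opposite direction, the peak of Zxdb fell from 258 to 18.1 and that of Zfp456, another zinc finger gene, from 65.4 in WT to 6.31 in Tyrobp-/- mice. Onecut1 had 92.8 and 15.4 and Sox14 had 56.2 and 10.9, both transcription factors of neuronal development. Acads, a mitochondrial enzyme of fatty acid oxidation, had 20.5 and 3.57, Lrp1b, of the LDL receptor family, 48.8 and 8.58, and Prrt4 had 31.3 and 6.19. Has3, a hyaluronan synthase (21.5 and 3.81), and Tomm40l, of the mitochondrial import pore (52.7 and 10.2), had peaks that did not overlap the named gene alone. Dusp6, an ERK phosphatase induced by neuronal activity, had 12.9 and 2.80, with an exonic length of 1284 bp in WT and 747 bp in Tyrobp-/- mice.

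Nearly all writer genes carried m6A peaks in their own 3′ UTR. In this and the following gene lists, genes were ranked by the fold enrichment of their highest 3′ UTR peak in a genotype, so a gene ranked low may stand above a weaker second peak of another gene. Over all genes with a peak of any class, 66.2% in WT and 68.6% in Tyrobp-/- mice had a 3′ UTR peak. Of all 3′ UTR pairs, 57.8% were higher in Tyrobp-/- mice, with a median log2 ratio of 0.08. No list was tested against these shares. Of 9 writers, 8 had a 3′ UTR peak in both lists, and Mettl3, the catalytic subunit, had no peak of any class in either. Of their 12 pairs, 6 were higher and 6 lower in Tyrobp-/- mice, with a median log2 ratio of -0.05 against 0.08 for all 3′ UTR pairs. The longest Rbm15b peak (2092 bp in WT, chr9:106884113-106886204) stood at 36.1 in WT and 10.1 in Tyrobp-/- mice, 3.57-fold lower and the only writer pair past 2-fold. A second Rbm15b pair within that span (chr9:106884751-106885619, 682 bp in both lists) had 11.9 and 8.89, only 1.34-fold lower. Rbm15b encodes an adaptor that brings the complex to RNA. Mettl14, the partner of METTL3, had 4.23 and 2.67. Wtap had 6.70 and 7.42, Zc3h13 had 6.64 and 9.43, the matched peak of Rbm15 had 2.89 and 3.18, and the main Virma peak had 9.80 and 8.33.

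Erasers and readers differed among themselves. Of 14 such genes, 5 had a 3′ UTR peak in WT and 7 in Tyrobp-/- mice. They are 55.6% and 63.6% of those with any peak (66.2% and 68.6% over all genes). The readers Ythdf3 (11.2 in WT and 9.12 in Tyrobp-/- mice), Ythdf2 (8.12 and 8.74) and Ythdc1 (11 and 13.7) had strong peaks, and Ythdf1 had weak ones (1.71 and 2.93). Hnrnpa2b1 ranked lowest in WT (1.39). The demethylase gene Fto had no 3′ UTR peak. Alkbh5, the other demethylase gene, had a peak at 1.72 and the reader gene Prrc2a one at 5.96 in the Tyrobp-/- list, with no WT peak at either place. None of the 5 pairs passed 2-fold.

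Of 36 postsynaptic genes, 34 in WT and 33 in Tyrobp-/- mice had a 3′ UTR peak, which is 94.4% and 94.3% of those with any peak (66.2% and 68.6% over all genes), with a median highest fold enrichment of 8.21 and 9.40 a gene, against 6.84 and 6.75 over all genes. Their 46 pairs had a median log2 ratio of 0.21, with 29 higher and 17 lower in Tyrobp-/- mice, and none passed 2-fold. The share higher was 63.0%, against 57.8% of all 3′ UTR pairs. Among receptors, Grin2a, an NMDA receptor subunit, had 15.4 in WT and 18.5 in Tyrobp-/- mice, and the peaks of Grin2b, another subunit, had 10.5 and 14 and 7.32 and 11.8. The AMPA receptor gene Gria2 had 7.63 and 9.47. Among scaffolds, Shank1 had 21.8 and 25.0, Dlg2 had 21.1 and 16.8, and Dlg4, which encodes PSD-95, had 12.8 and 18.6 at its main peak. The TARP gene Cacng2 had 21.8 and 19.0. Homer1 had 3 pairs, all higher in Tyrobp-/- mice, from 6.77 to 9.01, from 4.78 to 6.33 and from 1.51 to 2.46. Homer2 had a 3′ UTR peak in WT only (2.93, FDR above 1e-5). Gphn, the scaffold of inhibitory synapses, ranked lowest in each list (1.76 and 2.61). For Cacng8, the Tyrobp-/- peak of 6.13 overlapped a WT peak of the same gene annotated as 5′ UTR (11.7).

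Of 33 presynaptic genes, 22 in WT and 24 in Tyrobp-/- mice had a 3′ UTR peak, which is 73.3% and 77.4% of those with any peak (66.2% and 68.6% over all genes). Of their 28 pairs 17 were higher in Tyrobp-/- mice, with a median log2 ratio of 0.10. Rims2, of the release site, had 22.9 and 21.0, and the vesicle gene Vamp1, in peaks that it does not overlap alone, 13.3 and 11.6 and 8.23 and 13.7. Vamp2, the main vesicle SNARE, ranked lowest in WT by its highest peak (1.42). The pairs past 2-fold were at Nrxn2, a neurexin (17.1 and 39.1, not overlapped by the named gene alone), and at Erc1, an active zone scaffold (10.2 and 21.0). Syt7, a calcium sensor, had a peak of 1.68 in the Tyrobp-/- list only, and the Cplx2 peak of that list (1.88) overlapped a WT peak annotated as 5′ UTR (13.1). Syn1, Syt1 and Bsn had no 3′ UTR peak in either list.

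Of 27 immediate early genes, 22 had a 3′ UTR peak in each list. They are 81.5% in WT and 84.6% in Tyrobp-/- mice of those with any peak (66.2% and 68.6% over all genes). Their 26 pairs split into 14 higher and 12 lower in Tyrobp-/- mice, with a median log2 ratio of 0.04. Both pairs past 2-fold were lower. They were Dusp6, given above, and Fosb, an AP-1 transcription factor, with 35.5 in WT and 14.5 in Tyrobp-/- mice. Egr1 had 8.70 and 7.31 at its main peak, Arc 5.57 and 4.41, Egr4 17.6 and 15.5, Ier2 16.1 and 20.6 and Atf3 27.3 and 24.8. By name, Fos and Jun had a 3′ UTR peak in Tyrobp-/- mice only (3.97 and 43.2) and Klf4 in WT only (5.04). At each of these places the other list held a peak of the same gene under another class, at 4.84 for Fos, 34.9 for Jun and 14.3 for Klf4. Btg2 ranked lowest in WT by its highest peak (1.84), which had no overlapping Tyrobp-/- peak.

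Of 19 mRNAs known to travel into dendrites, 12 had a 3′ UTR peak in WT and 11 in Tyrobp-/- mice, and their 17 pairs had a median log2 ratio of 0.02. Camk2a, whose 3′ UTR directs dendritic transport, had 5.54 and 3.42 at its longer peak and 3.54 and 4.44 at the other. Ntrk2, the BDNF receptor gene, had 14.3 and 10.7, and Map1b had 6.00 and 5.41. Nrgn, a calmodulin-binding postsynaptic protein gene, had a peak of 1.71 in WT only, and Map2, a dendritic cytoskeleton gene, one of 1.39 in Tyrobp-/- mice only. The WT peak of Grin1 (2.29) overlapped a Tyrobp-/- peak named Grin1os (2.01). Bdnf and Actb had none. Of 37 genes for proteins that act on 3′ UTRs, 23 had a 3′ UTR peak in each list. They are 67.6% of those with any peak in each list (66.2% and 68.6% over all genes). Their median log2 ratio was 0.03 over 37 pairs, with none past 2-fold. Ago4, an Argonaute gene, had 15.7 and 13.9 at its strongest peak, Tnrc6a, of the miRNA silencing complex, 14.9 and 18.2, and Celf1 only 1.53 and 1.42. Msi2 had a peak in WT only (1.57) and Cnot7, a deadenylase gene, in Tyrobp-/- mice only (1.41). The dendritic translation regulators Cpeb1 to Cpeb4 and the decay factor Zfp36 had none.

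Of 29 amyloid and tau genes, 23 had a 3′ UTR peak in WT and 24 in Tyrobp-/- mice. They are 88.5% and 88.9% of those with any peak (66.2% and 68.6% over all genes). Of 25 pairs, 16 were higher in Tyrobp-/- mice (64.0%, against 57.8% of all 3′ UTR pairs), and the median log2 ratio was 0.25, against 0.08. App, the amyloid precursor gene, had 8.45 in WT and 9.43 in Tyrobp-/- mice, and Mapt, the tau gene, 5.29 and 6.06 at its main peak. Bace1, the main beta-secretase gene, had 4.8 and 4.53 in a peak that it does not overlap alone. Its homologue Bace2 had 4.01 and 12.2 at its matched pair, the only pair of the list past 2-fold. The strongest peaks were those of Aph1b, of gamma-secretase, in WT (17.5) and of Bace2 in Tyrobp-/- mice (25.7), and by their highest peak Clu ranked lowest in WT (1.42, WT only) and Aph1a in Tyrobp-/- mice (1.90). Sorl1 and Abca7, risk genes of Alzheimer's disease, had 13.5 and 17.2 and 9.63 and 16.3. No overlapping WT peak was found for Gsk3a (2.02) or Mme (4.45), and no overlapping Tyrobp-/- peak for Aplp2 (1.67).

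**Figure D5:**
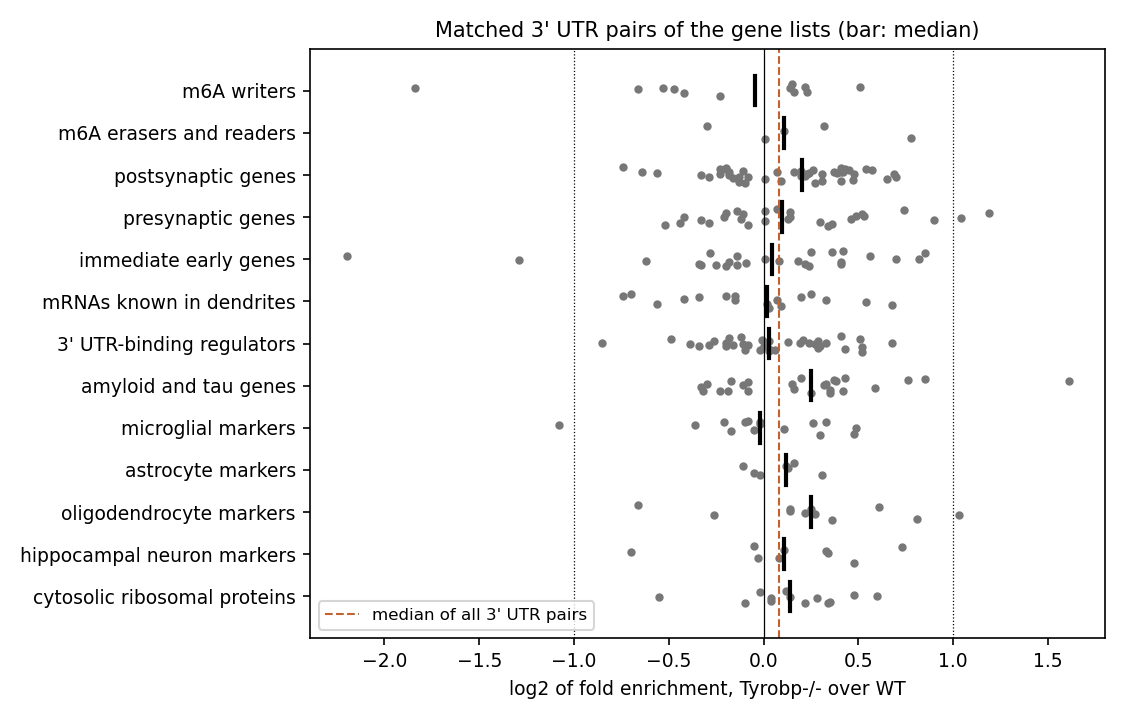
Log2 ratio of fold enrichment, Tyrobp-/- over WT, of each matched 3′ UTR pair (points, spread vertically at random) for the genes of each list, with the list median (bar), 0 (solid line), 2-fold (dotted lines) and the median of all 3′ UTR pairs (dashed, 0.08). List medians lie between -0.05 for writers and 0.25 for amyloid and tau genes and oligodendrocyte markers, and few pairs pass 2-fold.

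Markers of the labelled tissue carried peaks. Of 8 hippocampal neuron markers, 7 had a 3′ UTR peak in each list, among them Bhlhe22 (9.46 in WT and 9.28 in Tyrobp-/- mice) and Prox1 of dentate granule cells (3.30 and 4.19), while Neurod6 had none. The 7 markers are 87.5% of those with any peak in each list (66.2% and 68.6% over all genes). Of 7 hypothalamic peptide genes, 4 in WT and 2 in Tyrobp-/- mice had a peak of any class. Only Oxt had a 3′ UTR peak in WT (4.88), and none had one in Tyrobp-/- mice. Of 14 microglial markers, 9 had a 3′ UTR peak in each list, or 100% of those with any peak (66.2% and 68.6% over all genes). Tyrobp, Trem2, Itgam, Ctss and Cd68 had no peak. The 15 microglial pairs had a median log2 ratio of -0.02. The homeostatic receptor gene Cx3cr1 had 13.0 and 14, the complement gene C1qa 9.25 and 13.0, and P2ry12, in a peak that it does not overlap alone, 5.67 and 6.99. By their highest peak C1qb ranked lowest in WT (2.28) and Aif1 in Tyrobp-/- mice (2.33). Csf1r, the receptor that maintains microglia, had 5.66 and 2.68 at 1 of its peaks, the only microglial pair past 2-fold, and 7.71 and 7.60 at another, which it does not overlap alone. Whether microglial number or RNA differed between the groups was not tested with these lists.

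Of 10 astrocyte markers, 7 in WT and 6 in Tyrobp-/- mice had a 3′ UTR peak, with Aqp4, the water channel of end feet, at 7.40 and 8.27, and Sox9 at 13.9 and 17.2. The counts are 77.8% and 60.0% of those with any peak (66.2% and 68.6% over all genes). Glul had a peak in WT only (1.33), and Slc1a3 ranked lowest in Tyrobp-/- mice by its highest peak (1.43). Of 10 oligodendrocyte markers, 8 and 9 had one, and 9 of their 11 pairs were higher in Tyrobp-/- mice (81.8%, against 57.8% of all 3′ UTR pairs), with a median log2 ratio of 0.25, against 0.08. These are few pairs of few genes, and the share was not tested. Olig2, a lineage transcription factor, had 38.1 and 66.7, the myelin enzyme gene Cnp, in a peak that it does not overlap alone, 14.6 and 22.3, and the myelin gene Mbp 7.81 and 15.9 at the pair past 2-fold. Mbp had lower values in Tyrobp-/- mice at its other pairs, with 7.98 and 6.67 and 6.46 and 4.08. Sox10 ranked lowest in WT by its highest peak (1.81), and Cldn11 had a peak in Tyrobp-/- mice only (2.07).

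Cytosolic ribosomal protein genes, whose short 3′ UTRs end abundant and stable mRNAs, stood at the low end of fold enrichment. Of 77 genes, 28 in WT and 31 in Tyrobp-/- mice had a peak of any class. A 3′ UTR peak was found for 15 and 20, which is 53.6% and 64.5% of those (66.2% and 68.6% over all genes). Their median highest fold enrichment was 2.13 and 2.5, against 6.84 and 6.75 over all genes. Rps15a had the highest value in each list (3.18 in WT and 4.82 in Tyrobp-/- mice) and Rpl27a the lowest in WT (1.33 and 1.68). Peaks were found in Tyrobp-/- mice only at Rps6 (3.83), Rps25 (2.68), Rps7 (2.45), Rpl19 (2.08), Rps27 (1.55), Rpl12 (1.33) and Rps3a1 (1.11). At none of these 7 places did the WT list hold a peak. Over all lists, 20 genes had a 3′ UTR peak by name in Tyrobp-/- mice only, of which 15 had no overlapping WT peak, and 12 in WT only, of which 10 had no overlapping Tyrobp-/- peak. Over all genes, 1571 had one by name in Tyrobp-/- mice only and 942 in WT only.

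Most rows of the comparison table lay on peaks of the lists. Of its 3004 3′ UTR rows, 2024 (67.4%) overlapped 3′ UTR or other peaks of both lists, 753 overlapped the Tyrobp-/- list only, 173 the WT list only and 54 neither. Of its 2636 other rows, 1580 (59.9%) overlapped both lists, 536 the Tyrobp-/- list only and 461 the WT list only. The median exonic length of the 3′ UTR rows was 329 bp.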

How the data were processed

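Hippocampal RNA of 3 samples per genotype was sequenced by MeRIP-seq, with 1 IP and 1 input library for every sample. Reads were trimmed by the authors (fastp) and aligned to GRCm38 (HISAT2, Ensembl v96). Peak calling (exomePeak) took the replicates of 1 genotype jointly, and ChIPseeker supplied the annotation. The deposited peak lists hold a p-value of IP over input, the log10 of that p and of its FDR as caller scores, and the fold enrichment as a ratio. The deposited library table holds read counts and the percent of bases by quality and GC content. Fold changes and p-values of the comparison table are the authors' own comparison and were not used. The annotated members and gene lists were chosen with earlier results of these data known.

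Overlaps were computed on exonic blocks with Python 3.11.15, pandas 2.3.3 and numpy 2.4.6, and tested on simulated peak lists. Peak strand is not given in the lists, so partners were matched on either strand, although the plan required the same strand. Shares were given exact 95% binomial intervals (Clopper-Pearson) and compared by Fisher's exact test, two-sided (scipy 1.17.1). Medians, list counts and counts past 2-fold have no test. Depth behind a single peak is unknown. miRNA, promoter and gene coordinates came from RefSeq (GRCm38.p6). In promoter windows that share bases, 786520 shared bases were read alike and 0 differently.

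Named were the 5 genes with the most 3′ UTR peaks in each list, the 5 highest fold enrichments in each list, the 5 highest without a partner, the 10 largest and 10 smallest ratios of pairs (FDR below 1e-5, without predicted and Rik models), and of each gene list the strongest and weakest members and those found in 1 genotype. Counts among peaks that overlap the named gene alone, and the other list members named, were chosen after their values were seen. No sequence was read from chromosome 18. Alternatives changed the overlap, FDR, fold enrichment, pairing, centring, fold and gene models. Some items that these rules would name are not reported here.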

Additional observations from a re-analysis of the deposited data

How the results depend on the processing

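No paired analysis was possible because peaks were called on the pooled replicates of a genotype, and for the same reason no replicate could be left out. Of 65 alternative values, 39 kept their direction and stayed within the limits set for the result, and the causes of the other changes were not tested. The share of peaks in 3′ UTRs (47.2% in WT and 49.3% in Tyrobp-/- mice) was 57.7% and 60.3% with an FDR below 1e-5, 45.3% and 46.7% with a fold enrichment of at least 4, 66.1% and 68.5% when genes were counted, and 53.0% and 55.5% among peaks that overlap the named gene alone. The difference in partner share, 6.74 points in the Tyrobp-/- list, reversed to -3.38 with an FDR below 1e-5 and to -9.21 in the rest. In the same list it was 18.5 points when a partner shared at least 50% of both exonic lengths, and 5.77 to 7.17 under the other alternatives. In WT the difference was 5.20 to 23.6 points under all alternatives. The log2 ratio of the median fold enrichment, 3′ UTR over other peaks, was -0.174 in WT and -0.215 in Tyrobp-/- mice. It was -0.055 and -0.041 with an FDR below 1e-5, 0.001 (reversed) and -0.014 with the named gene alone, and -0.115 in WT with 1 peak for each gene and class. The distance to the gene end, measured from the 3′ edge, was 618 bp in WT and 530 bp in Tyrobp-/- mice, and 1046 bp in Tyrobp-/- mice from the midpoint with the named gene alone. The median log2 ratio of 3′ UTR pairs, 0.079, was 0.089 with any overlap, 0.062 with at least 80% of both lengths and 0.031 after centring. The counts past 2-fold, 452 and 299, were 190 and 121 with at least 80% of both lengths, 1423 and 791 past 1.5-fold, 390 and 328 after centring, and 347 and 171 with an FDR below 1e-5. The splits by named gene, by overlapping rows, by an FDR of 1e-5 or more and by 3′ edge, and all results on partnerless peaks near the gene end, were added after the data were seen. Without replicate values, depth limits no single peak's interval that could be given here.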
